A study of Homo sapiens with 2 samples.

Results

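The 10 genes described here, AXIN2, RNF43, ZNRF3, SP5, NKD1, LGR5, ASCL2, SOX9, CD44 and TCF7, are known targets of beta-catenin and TCF transcription factors in colorectal cells. They were taken by gene symbol from a table of 63236 isoforms and 26260 gene symbols, in which they hold 32 isoforms. The study sequenced poly-A RNA of HCT-116, an established human colorectal carcinoma line. The control library comes from untreated cells, and the other library from cells given lysophosphatidic acid (LPA), a signalling phospholipid, at 10 µM for 24 h once they had been starved of serum. Whether the control cells were also starved is not stated. Each condition is represented by 1 library, so every difference below is between these libraries, has no replicate check and carries no p-value.

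In the canonical Wnt pathway a destruction complex marks beta-catenin for breakdown, and a Wnt signal at the Frizzled and LRP receptors stops this. Beta-catenin then enters the nucleus, binds TCF and LEF factors and activates their targets. Several of these targets act back on the pathway: AXIN2 is a scaffold of the destruction complex, NKD1 binds Dishevelled, and RNF43 and ZNRF3 are membrane ubiquitin ligases that remove Frizzled receptors. LGR5 binds R-spondins, which block RNF43 and ZNRF3, and marks intestinal stem cells, where ASCL2 is a defining transcription factor. SOX9 is a transcription factor of the crypt base, SP5 a zinc finger repressor, TCF7 encodes the factor TCF-1, and CD44 is a hyaluronan receptor with many splice forms. HCT-116 is known for a stabilising mutation in CTNNB1, the beta-catenin gene, and for intact APC.

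Values are FPKM, estimated fragments scaled by transcript length and library size, summed over the isoforms of a gene. Depth was estimated at 16700000 fragments in untreated cells and 15700000 after LPA. A gene counted as measured at a mean of at least 1 FPKM over both libraries, which 11688 genes reached. Of the epithelial markers, EPCAM (220 FPKM in the control, 223 FPKM in the LPA library), KRT8 (1208 and 1507 FPKM), KRT18 (442 and 741 FPKM), CDH1 (10.4 and 11.4 FPKM) and CDX2 (9.41 and 10.5 FPKM) were above 1 FPKM, while LGALS4 was below 0.3 FPKM and VIL1 was listed at 0. The 11 immune, fibroblast and endothelial markers summed to 0.441 FPKM without and 0.322 FPKM with LPA, with PTPRC, COL1A2 and DCN listed at 0 in the control.

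Most of the 10 genes were expressed in both libraries, and none was 1.5-fold apart between them, a difference that 2.99% of measured genes showed. CD44, SOX9, RNF43, TCF7, AXIN2, ZNRF3 and SP5 were measured, NKD1 lay below 1 FPKM, and the stem cell genes LGR5 and ASCL2 were listed at 0. AXIN2, SP5, ZNRF3 and SOX9 had lower FPKM in the LPA library, CD44 and TCF7 higher FPKM, and RNF43 nearly equal FPKM. Beneath these small gene-level differences, the isoforms of ZNRF3, TCF7, CD44 and RNF43 made up different shares of their genes in the 2 libraries. How often other genes differ as much in isoform shares was not examined. Of 18 isoforms of the target genes with a mean of at least 0.1 FPKM, 1, of ZNRF3, had separate deposited bounds, against 7.4% of all such isoforms. For TCF7, CD44 and RNF43 all deposited bounds overlapped.

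Sequences at which these isoforms differ are shown first, because the isoform results below turn on them. All are read from GENCODE 29 transcripts (GRCh38) matched to the RefSeq names in the deposited table, 5′ to 3′, with the upstream exon in lower case and the downstream exon in capitals. ZNRF3 on chromosome 22, plus strand, has 2 isoforms that differ only in their first exon. In the longer one that exon ends at 28884066 and is coding. In the shorter one it ends at 28917481 and is untranslated, and the shared exon that follows begins at 28987076 with the start codon.
ZNRF3, NM_001206998: ggcgagatcgtgcagATGCACCCACTGGGC
ZNRF3, NM_032173: cctcatttcaacaagATGCACCCACTGGGC

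TCF7 on chromosome 5, plus strand, has isoforms from 2 start groups. In NM_003202 the first exon ends at 134115155 and the start codon lies at 134114907. In NM_201634, which shares the later start group with NM_201632, the first exon ends at 134115674 and the start codon lies at 134115938, in the next exon.
TCF7, NM_003202: cgcggcgaggccgagGCTCTCGGGCGGGAA
TCF7, NM_201634: acagaattggccaagGCCTGAAGGCCCCGG

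CD44 on chromosome 11, plus strand, has a block of variable exons between the constant exon that ends at 35190065 and the next constant exon, which begins at 35214852. The base joined to 35190065 differs among the 4 forms shown. It is 35214852 in the standard form without variable exons, 35208105 in the form with 3 variable exons, 35198121 in the form with 8 and 35196746 in the form with 9. The minor isoforms NM_001202557, which also has no variable exon, and NM_001202555, which has 1, are not shown, and the joint alone does not identify every isoform.
CD44 standard form, NM_001001391: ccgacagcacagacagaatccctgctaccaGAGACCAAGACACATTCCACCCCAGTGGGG
CD44 with 3 variable exons, NM_001001390: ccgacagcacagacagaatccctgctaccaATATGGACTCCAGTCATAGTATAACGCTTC
CD44 with 8 variable exons, NM_001001389: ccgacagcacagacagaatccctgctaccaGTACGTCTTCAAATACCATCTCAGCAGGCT
CD44 with 9 variable exons, NM_000610: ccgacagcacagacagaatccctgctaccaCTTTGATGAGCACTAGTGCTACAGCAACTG

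The feedback inhibitors were expressed at very different levels. RNF43 on chromosome 17 (locus 58301227 to 58417582 in hg38, a span that also holds 5 other gene symbols) had 14.4 FPKM in untreated cells and 14.5 FPKM after LPA. Its log2 ratio, log2((LPA FPKM + 1)/(control FPKM + 1)), was 0.00, and its level was above that of 62.5% of measured genes in the control. ZNRF3, the related ligase on chromosome 22 (28883767 to 29057488), had 2.69 and 2.26 FPKM, with a log2 ratio of -0.18 and an interval of the plain ratio, explained below, of -0.48 to 0.03. The RNF43 level was thus several times that of ZNRF3 in both libraries.

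AXIN2 on chromosome 17 (65528565 to 65561622), often used as a readout of the pathway, had 3.07 FPKM in untreated cells and 2.48 FPKM after LPA. The log2 ratio was -0.23. From the FPKM and the length of its 1 isoform these values correspond to about 217 and 165 fragments. An exact 95% binomial interval on the fragments, which covers counting error only, runs from -0.61 to -0.01 for the plain log2 ratio without a pseudocount. The interval lies below 0, but 34.5% of all measured genes had a log2 ratio at least as large in size, and the deposited bounds of AXIN2 in the control (2.09 to 4.04 FPKM) and the LPA library (1.64 to 3.31 FPKM) overlapped.

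NKD1 on chromosome 16 (50548330 to 50640860) had 0.422 and 0.479 FPKM, about 61 and 66 fragments over its single isoform of 8716 nt. The interval of the plain log2 ratio, -0.33 to 0.73, includes 0. Its paralog NKD2, another Dishevelled-binding protein, had 8.78 and 11.4 FPKM and was thus the more highly expressed of the pair in both libraries.

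SP5 on chromosome 2 (170700368 to 170798971, a locus that also holds 3 other symbols) had 2.20 and 1.72 FPKM, with a log2 ratio of -0.24. The ratio rests on about 72 and 53 fragments, and the interval of the plain log2 ratio, -0.90 to 0.18, includes 0. At this depth counting error alone does not settle the direction of the difference.

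The SP5 promoter is shown because SP5 is a known direct target of TCF factors. These are the 250 bases before the RefSeq start of the gene (GRCh38.p14, chr2:170715087-170715336, plus strand, 5′ to 3′). Capitals mark matches to CTTTGNN with A or T at each N, the words that TCF and LEF factors prefer, searched on both strands. A match on the minus strand reads as its reverse complement.
SP5 promoter: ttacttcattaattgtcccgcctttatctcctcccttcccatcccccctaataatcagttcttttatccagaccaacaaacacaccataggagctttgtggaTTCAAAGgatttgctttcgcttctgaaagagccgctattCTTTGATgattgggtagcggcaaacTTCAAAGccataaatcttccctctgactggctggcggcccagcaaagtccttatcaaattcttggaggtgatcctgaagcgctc

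The window holds 3 words: CTTTGAT on the plus strand beginning at base -109 from the start, and CTTTGAA on the minus strand over bases -148 to -142 and -84 to -78. They do not overlap. Over the RefSeq windows of all genes, which run from 250 bases before to 50 after the start, 63 of 35116 windows (0.179%) held 3 or more such words and 13.8% held at least 1. The promoter table matched 4 of the 10 genes with 6 windows. Of these, the SP5 window held the 3 words above. Of 2 TCF7 windows, 1 held a word, at -50 to -44 from a start at 134123618. This start lies in the first exon of no TCF7 isoform matched in the annotation. The other TCF7 window belongs to a start at 134115613, within the first exon of NM_201634, and held no word. The start of the leading isoform NM_003202, at 134114711, had no window of its own. No word was found in the windows of CD44 or RNF43. A word is a match of letters and no evidence of binding.

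**Figure D1:**
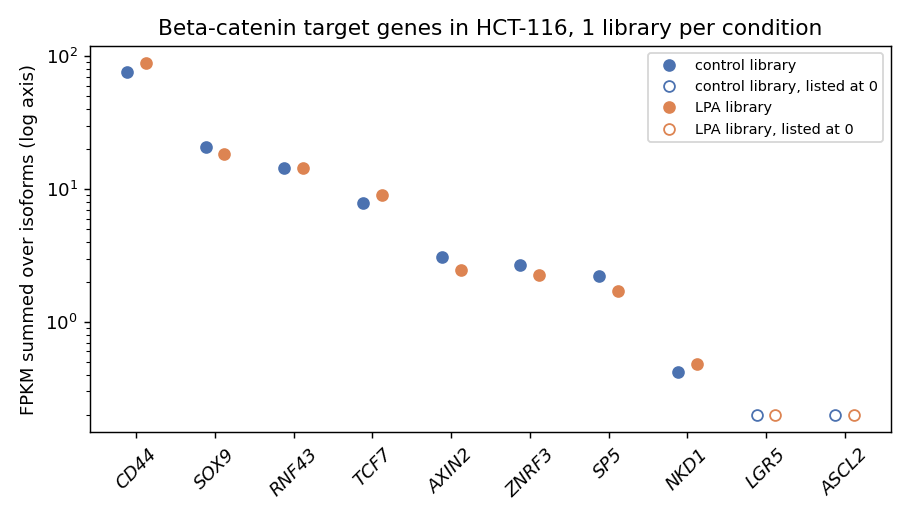
FPKM of each target gene, summed over isoforms, in the control (blue) and the LPA library (orange) on a log axis. The order of the 8 genes above 0 is the same in both libraries, from CD44 at 76.6 and 88.1 FPKM to NKD1 at 0.422 and 0.479 FPKM; LGR5 and ASCL2, listed at 0, are open circles at the foot of the axis.

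The crypt genes split into 1 abundant gene and 2 listed at 0. SOX9 on chromosome 17 (72121020 to 72126419) had 20.9 FPKM in untreated cells and 18.4 FPKM after LPA, with a log2 ratio of -0.18. About 1371 and 1136 fragments lie behind these values, and the interval of the plain log2 ratio, -0.30 to -0.07, lies below 0. Its deposited bounds, 15.1 to 26.7 and 13.2 to 23.5 FPKM, overlapped, and 45.8% of measured genes differed by at least as much.

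LGR5 on chromosome 12 (71439770 to 71586308) was listed at 0 FPKM for all 5 of its isoforms in both libraries. ASCL2 on chromosome 11 (2268498 to 2270952) was listed at 0 for its 1 isoform. The deposited bounds were also 0 for these 6 isoforms, as for 17630 of the 27403 isoforms listed at 0 in both libraries. A listed 0 in such a table need not mean absence. The R-spondin receptor that was measured is LGR4, a relative of LGR5, at 1.47 and 1.16 FPKM. LGR6 was listed at 0, and among the R-spondin genes RSPO4 had the highest FPKM in both libraries, 0.447 and 0.446.

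CD44 on chromosome 11 (35138870 to 35232402) had the highest level of the 10 genes, at 76.6 FPKM without and 88.1 FPKM with LPA. Its level was above that of 91.2% of measured genes without and 92.1% with LPA. The log2 ratio was 0.20, and with about 6514 and 7130 fragments the interval of the plain log2 ratio, 0.17 to 0.26, lies above 0. Counting error is small at this depth, but 40.5% of measured genes differed by at least as much.

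TCF7 on chromosome 5 (134114711 to 134148229) had 7.89 and 9.06 FPKM, with a log2 ratio of 0.18. The interval of the plain log2 ratio, -0.03 to 0.36, includes 0. Among its relatives TCF7L2, the main TCF of the intestine, had 45.4 and 35.8 FPKM, TCF7L1 had 10.0 and 8.92 FPKM, and LEF1 was listed at 0. Of the 3 factors above 0, TCF7 alone had a ratio above 0. With its leading isoform in place of the sum, its log2 ratio was -0.10, since its isoforms differed in direction, as described below.

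**Figure D2:**
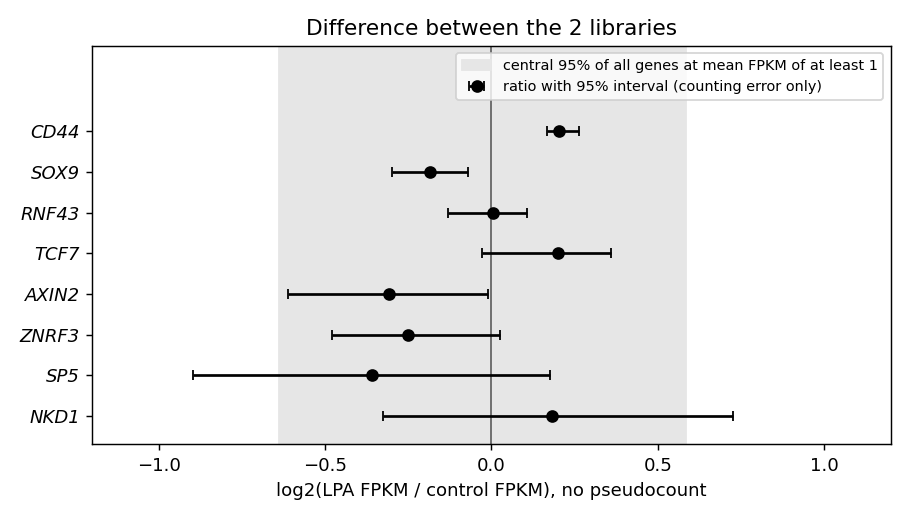
Plain log2 ratio of LPA to control FPKM for the 8 target genes above 0, with bars for the exact 95% interval of counting error. The grey band is the central 95% of measured genes, -0.64 to 0.58, and all 8 points lie inside it; the bars of AXIN2, SOX9 and CD44 do not cross 0.

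Of the 7 measured target genes, 3 had a log2 ratio above 0 and 4 below, with a range of -0.24 to 0.20 and a median of -0.18. Without the filter the median was -0.09 over the 8 genes above 0, with LGR5 and ASCL2 left out. It was -0.08 with a pseudocount of 5 FPKM, and 0.09 among the 4 genes at a mean of at least 5 FPKM. That last filter left out AXIN2, SP5 and ZNRF3, all with ratios below 0. Over all measured genes the median was 0.00 and 49.8% had a ratio below 0. None of the 7 was 2-fold or 1.5-fold apart, against 0.556% of measured genes at 2-fold and 2.99% at 1.5-fold. Beside shares this small, a count of 0 among 7 genes says nothing particular about them. The central 95% of all measured genes ran from -0.51 to 0.49, and all 7 lay inside it.

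The level order CD44, SOX9, RNF43, TCF7, AXIN2, ZNRF3, SP5, NKD1 was the same in both libraries. The deposited bounds are given per isoform, so neighbours can be compared by them only where both genes have 1 isoform. Among such genes SP5 (1.02 to 3.38 FPKM in the control) overlapped AXIN2, whereas NKD1 (0.245 to 0.599 FPKM) lay below both. After LPA the bounds of NKD1 (0.284 to 0.673 FPKM) and SP5 (0.657 to 2.78 FPKM) just overlapped. SOX9 lay above the other 3 with and without LPA.

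ZNRF3 showed the widest isoform difference. The shorter isoform NM_032173, annotated with 836 residues, had 1.501 FPKM in untreated cells and 0.000346 FPKM after LPA. The longer isoform NM_001206998, with 936 residues, had 1.19 and 2.26 FPKM. The shorter isoform thus held 55.8% of the gene's FPKM without and 0.0153% with LPA, while the gene total differed little.

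The deposited bounds of the shorter ZNRF3 isoform were separate (0.846 to 2.16 FPKM in the control, 0 to 0.0207 FPKM in the LPA library), and those of the longer one overlapped (0.612 to 1.76 and 1.54 to 2.97 FPKM). Of the 18 isoforms of the target genes with a mean of at least 0.1 FPKM, this was the 1 with separate bounds, against 7.4% of all such isoforms in the table. Beside that share, a count of 1 among 18 says nothing particular about the target genes. The isoforms share 6376 nt, so that 94 nt belong to the shorter and 301 nt to the longer isoform alone. At the deposited FPKM those 94 nt correspond to about 2.35 fragments in the control, and the 301 nt to about 5.96 and 10.7 fragments in the 2 libraries. The division of ZNRF3 into isoforms therefore rests on few fragments, apart from those that cross the junctions printed above. The antisense gene ZNRF3-AS1 was listed at 0 in both libraries.

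In TCF7 the long and the short start groups differed in opposite directions. NM_003202, annotated with 384 residues, had 6.48 FPKM in untreated cells and 5.96 FPKM after LPA. This difference is small, and its deposited bounds overlapped (4.34 to 8.63 and 3.83 to 8.10 FPKM). NM_201632, from the later start group, had 1.11 and 3.01 FPKM. Summed over the 6 isoforms of that group the values were 1.31 and 3.03 FPKM, or 16.6% and 33.5% of the gene's FPKM.

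Proteins from the later TCF7 starts are known to lack the N-terminal region that binds beta-catenin, and NM_201634, the member of this group printed above, is annotated with 268 residues. The coding region of NM_201632 itself was not matched in the annotation used. As shares of estimated fragments the later group held 14.7% (exact 95% binomial interval 11.4 to 18.4) in the control and 30.3% (26.0 to 34.7) in the LPA library, with counting error only. These intervals are apart, but they treat the division among isoforms as known. The deposited bounds of NM_201632, which include the uncertainty of that division, overlapped (0.138 to 2.09 and 1.41 to 4.62 FPKM). Before the first shared exon NM_201634 has 68 nt of its own in the annotation. At the FPKM of the whole later group these would correspond to about 1.49 and 3.24 fragments. Most of that FPKM is from NM_201632, whose own bases were not matched.

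CD44 was present mainly in forms with variable exons, which held 83.6% of its FPKM without and 83.5% with LPA. The form with 3 variable exons, NM_001001390, known as the epithelial form, led in both libraries with 36.0 and 37.0 FPKM. The form with 8 variable exons, NM_001001389, followed with 23.6 and 32.6 FPKM. The standard form without variable exons, NM_001001391, had 6.96 and 11.1 FPKM, and the form with 9, NM_000610, had 3.95 and 3.37 FPKM.

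The forms with 8 and with no variable exons were thus the ones that stood higher in the LPA library by most FPKM. The share of the gene's FPKM was 47.1% and 42.1% for the epithelial form, 30.8% and 37.0% for the form with 8, and 9.09% and 12.6% for the standard form. The deposited bounds overlapped for each of these, for example 12.8 to 34.4 and 18.5 to 46.7 FPKM for the form with 8. A very short form, NM_001001392, annotated with 139 residues, had 5.44 and 3.37 FPKM with lower bounds of 0 in both libraries. The remaining CD44 isoforms above 0 were minor: NM_001202555, with 1 variable exon, had 0.405 and 0.487 FPKM, and NM_001202557 had 0.191 and 0.142 FPKM.

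RNF43 was divided among 3 isoforms. NM_001305545 had 9.53 and 10.3 FPKM, NM_017763 had 3.94 and 3.0 FPKM, and NM_001305544 had 0.968 and 1.23 FPKM. The share of the gene's FPKM was 66.0% and 70.8% for NM_001305545, 27.3% and 20.7% for NM_017763, and 6.70% and 8.52% for NM_001305544. As a share of estimated fragments, NM_017763 had 31.4% (exact 95% binomial interval 28.8 to 34.1) and 24.1% (21.6 to 26.7). These intervals lie apart, cover counting error only and take the division among isoforms as known. All 3 pairs of deposited bounds overlapped. The opposite differences of the first and the second left the sum of the gene almost equal.

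**Figure D3:**
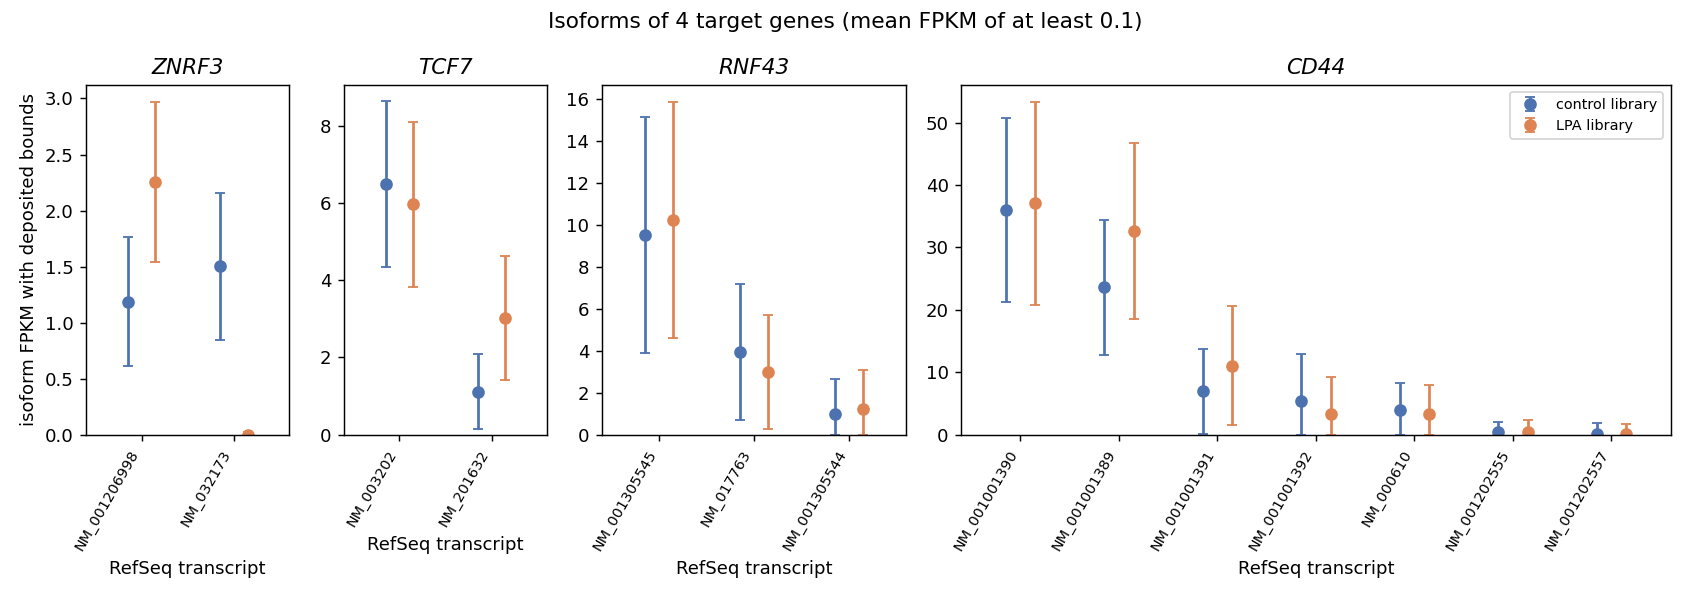
Isoform FPKM (points) with the deposited lower and upper bounds (bars) for ZNRF3, TCF7, RNF43 and CD44 in the control (blue) and the LPA library (orange), for isoforms with a mean of at least 0.1 FPKM. The bars are apart only for ZNRF3 NM_032173, at 1.501 and 0.000346 FPKM; TCF7 NM_201632 stands at 1.11 and 3.01 FPKM with overlapping bars.

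A wider list of 23 other beta-catenin targets went both ways. Of its 16 measured genes 8 were higher and 8 lower in the LPA library, with a median log2 ratio of -0.01. CEMIP, a hyaluronan-degrading protein gene, was the 1 gene past 1.5-fold, beside 2.99% of all measured genes, at 1.86 and 0.886 FPKM, or about 220 and 99 fragments. Its log2 ratio was -0.60 with the pseudocount of 1 FPKM, and the plain log2 ratio was -1.07 (counting interval -1.42 to -0.72). The next lowest were the ephrin receptor gene EPHB3 (2.48 and 1.87 FPKM) and the matrix protease gene MMP7 (3.59 and 2.997 FPKM). The counting interval of EPHB3, -0.76 to -0.07, lies below 0. That of MMP7, on about 67 and 53 fragments, contains 0 (-0.80 to 0.29). The highest ratios were those of NKD2, EPHB2 (1.98 and 2.66 FPKM) and the cyclin gene CCND1 (64.8 and 77.2 FPKM). MYC had 158 and 143 FPKM, and LEF1, APCDD1, PROX1, SMOC2, TDGF1 and CDX1 were listed at 0.

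The genes that carry the signal differed little. Of 18 measured among 20 genes of Wnt signal transduction, 9 were higher and 9 lower, with a median log2 ratio of 0.01 and none past 1.5-fold. CTNNB1 itself had the lowest ratio, -0.25, with 71.1 and 59.7 FPKM, followed by the tankyrase gene TNKS (4.73 and 3.96 FPKM), whose product destabilises axins, and DVL2 (25.9 and 22.7 FPKM). The highest were the co-receptor gene LRP6 (2.12 and 2.49 FPKM), the kinase gene CSNK1D (47.9 and 53.5 FPKM) and the ubiquitin ligase gene BTRC (6.36 and 6.93 FPKM). The destruction complex genes AXIN1 (8.09 and 8.73 FPKM) and APC (1.45 and 1.56 FPKM) were slightly higher. The counting interval of the plain log2 ratio contains 0 for AXIN1 (-0.07 to 0.30), APC (-0.16 to 0.34) and BTRC (-0.04 to 0.28). Those of CTNNB1, TNKS, DVL2, LRP6 and CSNK1D do not contain 0. AXIN1 was thus above its paralog AXIN2 in both libraries.

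**Figure D4:**
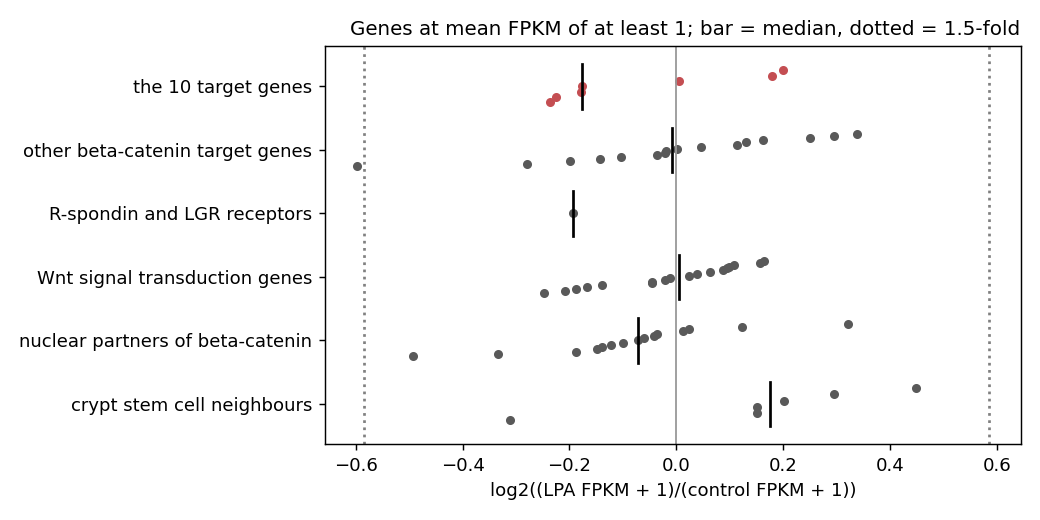
Log2 ratio, log2((LPA FPKM + 1)/(control FPKM + 1)), of each measured gene in the 10 target genes (red) and in 5 other lists (grey), with a bar at each median and dotted lines at 1.5-fold. The target genes span -0.24 to 0.20, and CEMIP in the list of other targets is the 1 point beyond a dotted line.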

How the data were processed

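Poly-A RNA of HCT-116 cells is represented by 1 control and 1 LPA library, with groups taken from the sample titles. Both titles carry the number 3, and whether other replicates were made is not stated. Per the submitters' processing notes, bcl2fastq 2.16.0.10, TopHat2 2.0.12, Cufflinks and Cuffdiff 2.2.0 were used with hg38. Their settings, the annotation and the scaling between libraries are not stated, and the kit does not mark strand. The deposited values are FPKM per isoform with lower and upper FPKM bounds, per the file headers, and the level of the bounds is not stated. No sample column was left unused.

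From these values, isoforms were summed per symbol, leaving out 16 isoforms with the status HIDATA (none of the 10 genes). Log2 ratios used a pseudocount of 1 FPKM and genes with a mean of at least 1 FPKM. The worth of 1 fragment was the median of FPKM × length/1000 between 0.04 and 0.09 among genes with 1 isoform over 2000 nt (0.0599 in the control, 0.0636 in the LPA library). Fragment numbers ignore effective length, so intervals (exact Clopper-Pearson, 95%) cover counting error only. Python 3.11.15, pandas 2.3.3 and scipy 1.17.1 were used, and the sums and ratios were tested on simulated data.

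The target genes and lists were chosen with earlier results of these data known. The text names all 10 genes, their isoforms at a mean of at least 0.1 FPKM, the 3 highest and 3 lowest measured genes of each other list, and CTNNB1, APC, AXIN1, LGR4, NKD2, LEF1, TCF7L1, TCF7L2, MYC and CCND1. A comparison of proteins was planned and was not run. Other pseudocounts, scalings, filters and isoform sets were tried.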

Additional observations from a re-analysis of the deposited data

How the results depend on the processing

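No paired analysis was possible because the conditions share only 1 replicate number, with 1 library each. For the same reason no library could be left out. Pseudocounts of 0.1 and 5 FPKM, equal FPKM totals, centring on the median of all genes, no filter, the removal of isoforms with class code j (a splice pattern unlike the RefSeq transcript) and the removal of isoforms under 300 nt left the sign of all 7 measured target genes as reported. With the leading isoform alone ZNRF3 moved to 0.57, TCF7 to -0.10 and CD44 to 0.04. With a mean of at least 5 FPKM 4 of the target genes were measured, 1 of them lower, and their median was 0.0916. The genes that this filter removed, AXIN2, ZNRF3 and SP5, all had ratios below 0. A fold limit of 1.5 also called none of them. With CTTTGAT alone 1 promoter window held a word. As shares of fragments, the CD44 form with 8 variable exons held 33.9% and 40.3% and the standard form 8.18% and 11.2%. Depth limits SP5 and NKD1 most, at about 53 to 72 fragments in a library.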

Other observations

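Of 15 measured among 18 genes for nuclear partners of beta-catenin, 4 had a log2 ratio above 0 and 11 below, with a median of -0.07, against 49.8% of all measured genes below 0. The lowest were CTNNBIP1, which encodes an inhibitor of the binding of beta-catenin to TCF (13.7 and 9.41 FPKM in the control and the LPA library), TCF7L2 (45.4 and 35.8 FPKM) and BCL9L, a co-activator gene (14.0 and 12.2 FPKM). The highest was SMARCA4, the ATPase of a chromatin remodelling complex (15.2 and 19.2 FPKM), followed by the co-repressor gene TLE3 (7.03 and 7.74 FPKM) and the beta-catenin antagonist gene CBY1 (22.6 and 23.0 FPKM). None was past 1.5-fold, and for BCL9, CREBBP, EP300, HDAC1, TCF7L1, TLE1 and TLE2, all among the 11 below 0, the counting interval of the plain log2 ratio contains 0. The same holds for TLE3, CBY1 and PYGO2, which are among the 4 above 0.

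A list of 9 genes found beside LGR5 in crypt stem cells had 6 measured members, 5 of them higher in the LPA library, with a median log2 ratio of 0.18, while 5864 of all 11688 measured genes were higher. The highest were CDCA7 (11.4 and 15.9 FPKM), EPHB2 (1.98 and 2.66 FPKM), which also stands in the list of other targets, and PROM1 (5.44 and 6.40 FPKM). BMI1 was the 1 lower gene (19.5 and 15.5 FPKM). The deposited gene model that holds BMI1 carries 3 symbols, and how fragments were divided among them was not examined. RGMB and MSI1 had 3.98 and 4.53 FPKM and 8.15 and 9.16 FPKM, with counting intervals that contain 0. TNFRSF19, below 1 FPKM, had 0.402 and 0.191 FPKM. OLFM4 and SMOC2 were listed at 0 in both libraries.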
